A study of Mus musculus with 12 samples.

Results

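The thymosins, the cytoplasmic actins and the factors that nucleate, sever and load actin in the oocyte were followed through the translated and the untranslated mRNA of oocytes with and without LSM14B. Of the 24259 gene symbols measured, 9 were chosen by name, with earlier results of these data known: *Tmsb4x*, *Tmsb10*, *Actb*, *Actg1*, *Fmn2*, *Spire1*, *Spire2*, *Cfl1* and *Pfn1*. *Tmsb4x* was in addition selected on its measured values, as the gene with the largest fall in KO of the polysome-to-RNP ratio (polysome FPKM against RNP FPKM), so its levels are given as a description, with no test in any comparison. The ratio is given without a test for the other 8 genes too, and those 8 were tested in each pool and between pools.

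Fully grown oocytes at the germinal vesicle (GV) stage were taken from the ovaries of WT and *Lsm14b*-KO mice aged 3 weeks, 46 h after 5 IU of PMSG, a gonadotropin that stimulates follicle growth. KO mice were homozygous for a reporter-tagged insertion (a knockout-first allele) in *Lsm14b*, present in every cell of the body, and both genotypes were on a C57BL/6J background. Lysates of pooled oocytes were spun through sucrose, and each gradient was cut into 28 fractions. Fractions 1 to 10 gave the RNP pool, which holds mRNA with few or no ribosomes, and fractions 11 to 28 gave the polysome pool, which holds mRNA under translation. There were 3 libraries of each of the 4 groups, WT polysome, KO polysome, WT RNP and KO RNP, and 12 in all. The labels do not say whether libraries of a group came from separate animals, so the p-values measure only the spread between these samples. The comparison of WT with KO asks which mRNAs depend on LSM14B for their place on polysomes.

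Actin in a cell is kept in balance between single subunits and filaments. Thymosin beta proteins bind single subunits and hold them back from filaments, profilin loads subunits onto growing filament ends, and cofilin severs old filaments and returns their subunits. In the mouse oocyte, formin 2 and the Spire proteins together nucleate the cytoplasmic actin mesh that carries vesicles and moves the spindle to the cortex for the first polar body.

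The thymosin pair has coding sequences of equal length, shown here because their levels moved differently while the proteins are close relatives. *Tmsb4x* lies at chrX:167207093-167209315 on the minus strand in 3 exons, and *Tmsb10* at chr6:72957347-72958748 on the minus strand in 2 exons (GRCm38, the same build as mm10, GENCODE M21). Both coding sequences span 132 bases without the stop codon and are identical at 92 of them (69.7%). Capitals mark the 40 bases that differ.
Tmsb4x: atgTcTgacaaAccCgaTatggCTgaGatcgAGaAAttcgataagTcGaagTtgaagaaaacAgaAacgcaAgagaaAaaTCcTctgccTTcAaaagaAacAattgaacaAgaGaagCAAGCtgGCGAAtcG
Tmsb10: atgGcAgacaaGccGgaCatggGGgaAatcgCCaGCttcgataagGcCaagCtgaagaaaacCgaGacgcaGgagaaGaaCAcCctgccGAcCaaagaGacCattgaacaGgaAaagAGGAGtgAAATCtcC
No other annotated transcript matched *Tmsb4x* in an alignment of 100 bases or more at 95% identity or more. *Tmsb10* had 6 such matches, 5 of them to pseudogenes and the other to *Gm9844* on chromosome 7 (413 bases at 99%), which was not analysed here, so reads of *Tmsb10* and of its copies may have been mixed or lost. *Actg1* matched 6 pseudogenes, and *Cfl1* matched 1 pseudogene and a stretch of 140 bases in *Arcn1*. *Cfl1* also overlaps *Snx32* on the opposite strand, and *Spire2* overlaps *Gm20388* on the same strand, which leaves both values uncertain by those neighbours. *Actb* and *Actg1*, with coding sequences of 1125 bases that are 88.6% identical, gave no such alignment. Identity was judged over whole alignments, so a shorter and closer stretch shared by these genes would not have been found. Mixing of their reads was not tested.

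The last bases of an oocyte mRNA are where cytoplasmic polyadenylation elements act, U-rich motifs that control the poly(A) tail and translation of stored transcripts. TTTTAT and TTTTAAT were searched on the transcript strand of 1 annotated transcript per gene. The windows of 30 bases below run up to and include the polyadenylation signal AATAAA of the thymosin pair, with AATAAA and TTTTAAT in capitals.
Tmsb4x: aatgcacaatttTTTTAATatgcaAATAAA
Tmsb10: aaaattatttgtatgattgatgaaAATAAA
*Tmsb4x* held TTTTAAT 2 times in its last 100 bases, the nearer one starting 32 bases from the end. Neither motif was found in the 3′ untranslated region (265 bases) of *Tmsb10*. Of 5964 protein-coding genes averaging 5 FPKM or more, 5.92% held TTTTAAT in the last 100 bases and 20.6% held at least 1 of the motifs. *Actb* held TTTTAAT 2 times, the nearer one 171 bases from the end, and *Fmn2* held TTTTAT 2 times, the nearer one 187 bases from the end. *Spire1* held TTTTAT within its last 100 bases, and *Actg1*, *Spire2*, *Cfl1* and *Pfn1* held neither motif in the annotated region. A match of letters is a description, and the poly(A) tails were not measured.

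*Lsm14b*, the targeted gene, lay between 11.3 and 34.6 FPKM in the 6 WT libraries and between 0 and 0.893 FPKM in the 6 KO libraries. FPKM holds no read counts, and low values rose in whole-fragment steps only in part (56.8% to 78.3% of low values were within 0.1 of a whole number), which gave estimates of 4.85 to 7.97 M (mega) fragments per library. The step was the one that fitted best within a range set beforehand, and that share was taken at the chosen step. It rested on 64 to 143 low values per library, so the fragment estimates are rough. KO polysome library 2 stood apart, with 34.7% of its summed FPKM in 10 genes against 11.6% to 14.7% elsewhere, led by *Mir300*. Without that library all 4 members called higher in KO polysomes and all 5 called between the KO pools, described below, were still called, and the polysome difference of *Tmsb4x* was -2.88 in place of -2.59. Oocyte markers summed to 10281 to 33089 FPKM, and theca and immune markers stayed under 9 FPKM in sum. Endothelial markers summed to between 14.7 and 42.5 FPKM, nearly all of it from *Pecam1* and *Tek*, while *Kdr* and *Emcn* were listed at 0 in all 12 libraries and *Cdh5* reached at most 0.0384 FPKM. Granulosa and cumulus markers (15 genes, of which *Lhcgr*, *Ptx3* and *Tnfaip6* were listed at 0 in all 12 libraries) summed to between 27.9 and 76.3 FPKM in the WT and between 81.2 and 103 FPKM in the KO polysome libraries. Their sums in RNP were between 31.3 and 37 FPKM for WT and between 42.7 and 66 FPKM for KO.

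The members covered a wide range of levels. In WT polysomes, *Cfl1* was the most abundant at 1536 ± 110.1 FPKM (mean ± SD, n = 3 in each group here and below), which ranked 32 among all genes. *Tmsb10* followed at 398 ± 76.5, *Pfn1* at 267 ± 9.41, *Actb* at 266 ± 24.2, *Spire1* at 114 ± 5.82, *Actg1* at 107 ± 14.1 and *Fmn2* at 24 ± 5.04 FPKM. The ranges of *Pfn1* and *Actb* overlapped, as did those of *Spire1* and *Actg1*. *Tmsb4x*, between 6.89 and 15.5 FPKM, and *Spire2*, at 5.02 ± 1.24 FPKM, were the least abundant. Since FPKM is scaled to transcript length and to the fragments of each library, it compares shares of a pool and not amounts per oocyte, and in such pools fewer cells of a type and less RNA per cell cannot be told apart.

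**Figure D1:**
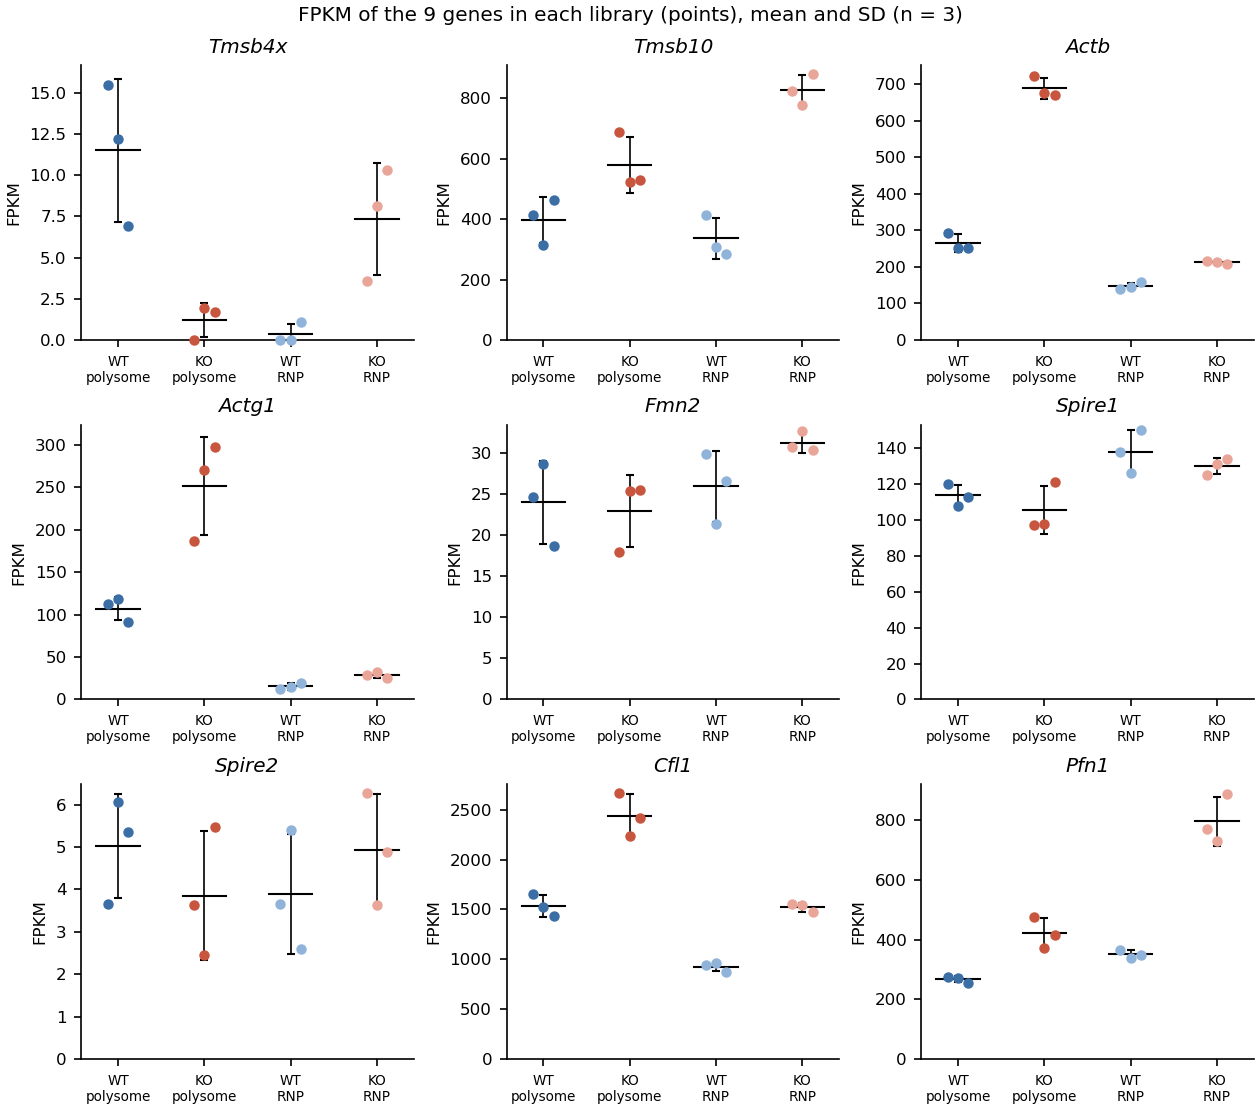
FPKM of the 9 genes by group, with 1 point per library, the mean as a line and the SD as a bar (n = 3); each panel has its own linear axis. *Tmsb4x* is high only in WT polysomes and KO RNP, *Actb*, *Actg1*, *Cfl1* and *Pfn1* are higher in KO in both pools, and the genotypes overlap for *Spire1* and *Spire2* in both pools.

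*Tmsb4x* encodes thymosin beta 4, the main subunit-holding peptide of many cell types. In WT polysomes it measured 15.5, 12.2 and 6.89 FPKM, and in KO polysomes 0, 1.95 and 1.67 FPKM. The RNP pools were the other way round, with 0, 0 and 1.09 FPKM in WT and 3.6, 8.12 and 10.3 FPKM in KO. Every KO library was below every WT library in polysomes and above every WT library in RNP. On the log2(FPKM + 1) scale, KO differed from WT by -2.59 ± 0.56 (SE) in polysomes and by 2.61 ± 0.48 in RNP. Between pools, polysomes differed from RNP by 3.23 ± 0.53 in WT and by -1.97 ± 0.52 in KO, which made a change of -5.20 ± 0.76 in the ratio, the lowest of 10949 genes by selection. These values rest on few fragments, an estimated 31 to 54 in each WT polysome library, 16 to 38 in each KO RNP library and 0 to 6 in the other 6 libraries. Their size depends on the pseudocount, and the ratio change was -8.85 with a pseudocount of 0.1 and -2.56 with 5.

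*Tmsb10*, thymosin beta 10, was the abundant member of the pair. Its levels were 414, 315 and 465 FPKM in WT polysomes and 688, 522 and 529 FPKM in KO polysomes. In RNP they were 413, 309 and 286 FPKM in WT and 823, 779 and 879 FPKM in KO. KO libraries lay above WT libraries in both pools without overlap. *Tmsb10* rose in KO RNP by 1.31 ± 0.13 (adjusted p = 0.000247, limma over all genes), a 2.48-fold change on the FPKM + 1 scale. In polysomes the difference of 0.55 ± 0.17 did not pass the threshold of 0.05 (limma adjusted p = 0.0771, 95% interval 0.16 to 0.94). In WT the pools did not differ beyond the threshold (0.24 ± 0.18, polysome minus RNP, limma adjusted p = 0.426), and in KO *Tmsb10* was lower in polysomes than in RNP by -0.52 ± 0.11 (limma adjusted p = 0.00828). Its ratio change was -0.76 ± 0.23, of the same sign as that of *Tmsb4x*.

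The cytoplasmic actins *Actb* and *Actg1* encode the subunit of the filaments themselves. *Actb* measured 294, 253 and 251 FPKM in WT polysomes and 723, 675 and 671 FPKM in KO polysomes. In RNP it measured 140.0, 146 and 158 FPKM in WT and 216, 214 and 208 FPKM in KO. The groups were far apart in polysomes and closer in RNP, without overlap in either. *Actb* rose in KO polysomes by 1.37 ± 0.11 (limma adjusted p = 0.000686, 2.59-fold) and in KO RNP by 0.52 ± 0.09 (limma adjusted p = 0.00509, 1.44-fold). It moved from rank 284 to rank 96 among the genes of the polysome pool.

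*Actg1* gave 112, 118 and 91.3 FPKM in WT polysomes and 187, 270.0 and 297 FPKM in KO polysomes, against 11.9, 14.5 and 19.5 FPKM in WT RNP and 29.2, 32.7 and 24.9 FPKM in KO RNP. Every polysome library lay above every RNP library in both genotypes, and among the 8 tested members it had the largest difference between pools in each genotype. Its rise in KO was 1.20 ± 0.20 in polysomes (limma adjusted p = 0.00885, 2.3-fold) and 0.90 ± 0.23 in RNP (limma adjusted p = 0.0228, 1.86-fold). The RNP call was lost without WT RNP library 1 (limma adjusted p = 0.0582), without KO RNP library 1 (0.0792) and without KO RNP library 2 (0.0984).

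*Cfl1* (cofilin 1) and *Pfn1* (profilin 1) act on the turnover of filaments. *Cfl1* lay at 1652, 1523 and 1433 FPKM in WT polysomes and 2667, 2236 and 2413 FPKM in KO polysomes, with 944, 965 and 874 FPKM in WT RNP and 1559.6, 1540.3 and 1474 FPKM in KO RNP. KO was higher than WT by nearly the same amount in both pools, 0.67 ± 0.10 in polysomes (limma adjusted p = 0.00608) and 0.72 ± 0.06 in RNP (limma adjusted p = 0.000137). *Pfn1* was at 274, 271 and 256 FPKM in WT polysomes and 475, 372 and 417 FPKM in KO polysomes, and at 365, 339 and 348 FPKM in WT RNP and 772, 729 and 889 FPKM in KO RNP. It rose by 0.65 ± 0.12 in polysomes (limma adjusted p = 0.0141) and by 1.18 ± 0.09 in RNP (limma adjusted p = 5.68e-05). Neither gene had overlapping genotypes in a pool. Without KO polysome library 3 the polysome call of *Pfn1* was lost (limma adjusted p = 0.0553).

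The nucleators *Fmn2*, *Spire1* and *Spire2* did not pass the test between genotypes in either pool. *Fmn2* had 24.6, 28.7 and 18.7 FPKM in WT polysomes, 17.9, 25.4 and 25.5 in KO polysomes, 29.9, 21.3 and 26.6 in WT RNP and 30.7, 32.7 and 30.4 in KO RNP. The genotypes overlapped in polysomes and lay just apart in RNP. *Spire1* ranged from 97.4 to 150.1 FPKM and *Spire2* from 2.45 to 6.28 FPKM over the 12 libraries. For *Spire1* the interval of the KO minus WT difference was narrow, -0.46 to 0.23 in polysomes and -0.33 to 0.16 in RNP (95%, log2 scale). For *Fmn2* it ran from -0.68 to 0.56 in polysomes and from -0.14 to 0.68 in RNP. For *Spire2*, at its low level, it ran from -1.35 to 0.67 in polysomes and from -0.51 to 1.10 in RNP, which leaves room for changes of the size seen for *Cfl1*.

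Of the 8 members tested, 4 rose in KO polysomes and none fell, where 5.64% of the 9536 genes tested were called higher and 4.73% lower. In RNP 5 of 8 rose and none fell, where 10.5% of 9931 genes were called higher and 10.2% lower. The members were chosen with earlier results of these data known, so the shares set against all genes are a description. The median difference of all genes was 0.10 in polysomes and 0.05 in RNP. When the spread was estimated without an intensity trend, *Actb* was the only 1 of the 4 polysome calls that held, with limma adjusted p = 0.0574 for *Actg1*, 0.125 for *Cfl1* and 0.137 for *Pfn1*, and in RNP the call of *Actb* was lost (limma adjusted p = 0.0722). In the same libraries the granulosa and cumulus markers *Inha*, *Inhba* and *Fshr* were higher in KO polysomes, given here without a test because each passed the filter on low values only with its KO libraries. *Inha* reached 51.4, 39.4 and 39.5 FPKM in KO polysomes against 9.58, 0 and 8.11 FPKM in WT polysomes, and 11, 6.03 and 3.8 FPKM in KO RNP against 0, 0.24 and 0 FPKM in WT RNP. *Inhba* measured 3.72, 8.27 and 11.9 FPKM in KO polysomes against 0.252, 0 and 0 FPKM in WT polysomes, and *Fshr* 4.36, 3.14 and 6.74 FPKM against 0, 0 and 0.7 FPKM. In RNP *Fshr* measured 13.6, 9.77 and 7.57 FPKM in KO and 4.12, 5.62 and 5.33 FPKM in WT. Other markers of the list did not all rise in KO polysomes. *Cyp19a1* averaged 24.2 FPKM in KO polysomes against 37.7 in WT polysomes, *Kitl* 1.48 against 1.56 and *Cyp11a1* 0.0324 against 0.728. *Nr5a2* averaged 6.05 against 2.73, *Hsd17b1* 1.58 against 0.574 and *Amh* 0.711 against 0.108. *Foxl2*, a defining granulosa marker, was listed at 0 in every library of 3 groups and reached at most 1.01 FPKM in KO RNP. The part of these markers in the rise of the actins, *Tmsb10*, *Cfl1* and *Pfn1* was not tested.

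**Figure D2:**
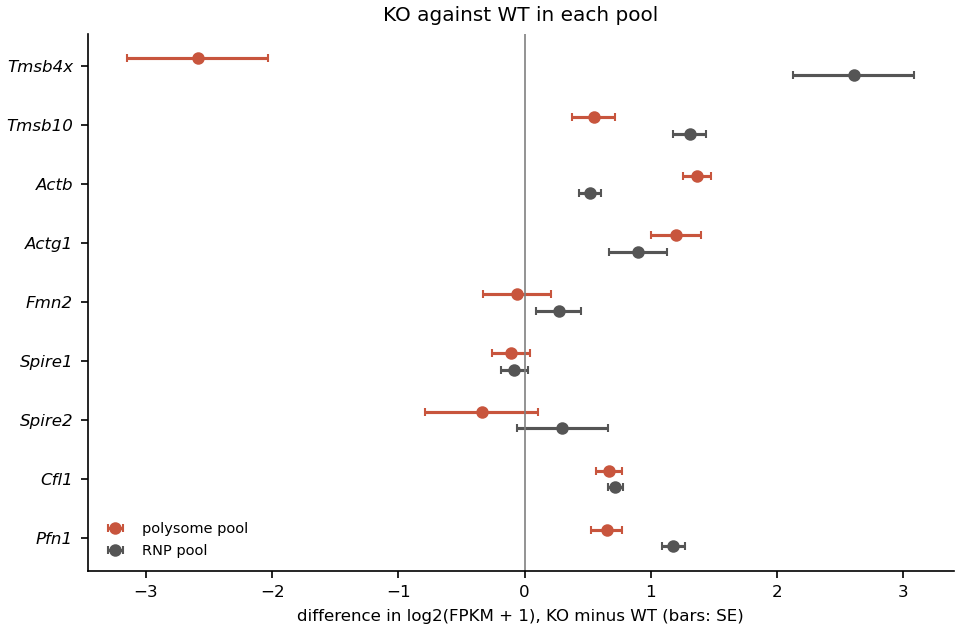
Difference between KO and WT in log2(FPKM + 1) for the 9 genes in the polysome pool and the RNP pool, with the SE as bars (n = 3 per genotype). *Tmsb4x* sits at -2.59 in polysomes and 2.61 in RNP, 5 other genes lie above 0 in both pools, and the bars of *Spire1* and *Spire2* cross 0 in both.

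The pools were then compared within each genotype, which shows where each mRNA sat on the gradient. In WT, *Actg1* (2.75 ± 0.24, polysome minus RNP, limma adjusted p = 0.000221), *Actb* (0.84 ± 0.13, 0.00344) and *Cfl1* (0.73 ± 0.09, 0.00124) were higher in polysomes. *Pfn1* was lower in polysomes by -0.39 ± 0.10 (limma adjusted p = 0.0375), a call that was lost when any 1 of the 6 WT libraries was left out (0.059 to 0.131). Without an intensity trend *Actg1* alone of these was called in WT (limma adjusted p = 0.068 for *Actb*, 0.0885 for *Cfl1* and 0.274 for *Pfn1*). In total 4 of 8 members were called, where 7.97% of 9574 genes were called higher in polysomes and 6.72% higher in RNP. In KO the same 3 genes were higher in polysomes, by 3.06 ± 0.19 for *Actg1* (limma adjusted p = 8.06e-06), 1.69 ± 0.08 for *Actb* (1.66e-06) and 0.67 ± 0.08 for *Cfl1* (0.000244). *Pfn1* (-0.92 ± 0.11, limma adjusted p = 0.000355) and *Tmsb10* were lower in polysomes. These 5 of 8 calls stood against 15.5% of 9851 genes called higher in polysomes and 13.8% higher in RNP. Under quantile normalization the KO call of *Cfl1* was lost (limma adjusted p = 0.153), and without an intensity trend that of *Tmsb10* (0.0854). *Fmn2* and *Spire1* lay a little lower in polysomes in KO (-0.45 ± 0.19 and -0.31 ± 0.12) and did not pass the test (limma adjusted p = 0.11 and 0.0919), while *Spire1* did without KO polysome library 3 (0.0324) and under quantile normalization (0.0151).

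The change of the ratio, as a description, divided the members. It was 0.85 ± 0.14 for *Actb*, and 0.31 ± 0.31 for *Actg1*, with an SE as large as the value. For *Cfl1* (-0.05 ± 0.11) and *Spire1* (-0.03 ± 0.17) it was near 0. It was -0.53 ± 0.15 for *Pfn1*, -0.76 ± 0.23 for *Tmsb10*, -0.33 ± 0.32 for *Fmn2* and -0.64 ± 0.54 for *Spire2*, the last pair with an SE close to the value. The median of all genes was 0.04.

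**Figure D3:**
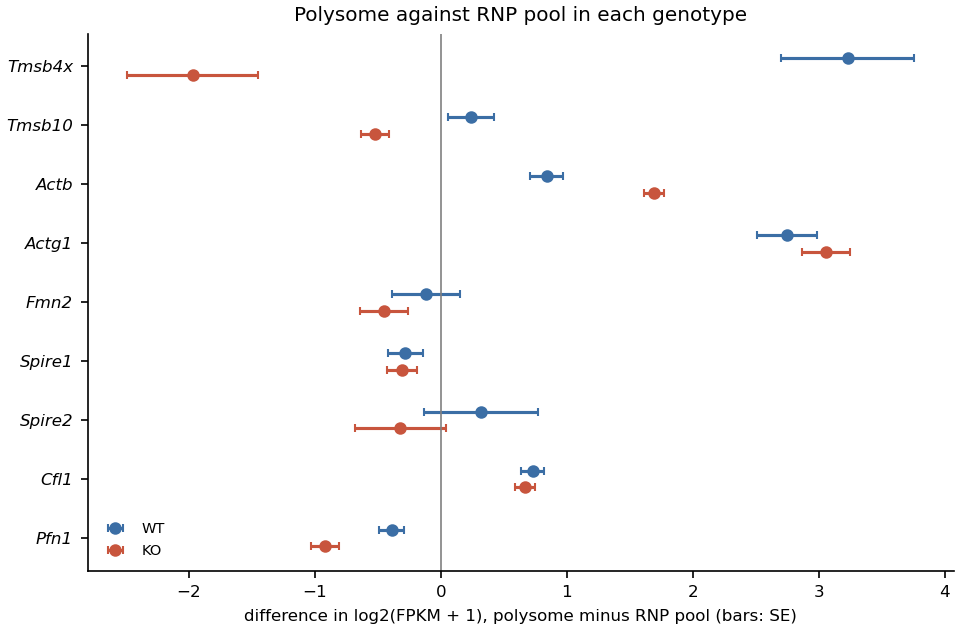
Difference between the polysome and the RNP pool in log2(FPKM + 1) for the 9 genes in WT and in KO, with the SE as bars (n = 3 per pool). *Tmsb4x* lies at 3.23 in WT and -1.97 in KO, *Actg1* lies near 3 in both genotypes, and *Tmsb10* and *Pfn1* lie lower in KO than in WT.

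Ratios within a library do not depend on scaling between libraries, and carry no test here. Summed thymosin (*Tmsb4x* and *Tmsb10*) to summed actin (*Actb* and *Actg1*) was 1.06, 0.881 and 1.38 in WT polysomes and 0.755, 0.554 and 0.548 in KO polysomes. In RNP the ratio was 2.72, 1.92 and 1.61 in WT and 3.37, 3.18 and 3.82 in KO. KO libraries were below WT in polysomes and above WT in RNP, without overlap, and *Tmsb10* made up nearly all of the thymosin sum. *Actb* to *Actg1* was 2.5 ± 0.322 in WT polysomes and 2.87 ± 0.866 in KO polysomes, with overlapping libraries, against 9.99 ± 1.84 in WT RNP and 7.44 ± 0.892 in KO RNP. *Tmsb4x* to *Tmsb10* was at most 0.0388, in a WT polysome library.

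**Figure D4:**
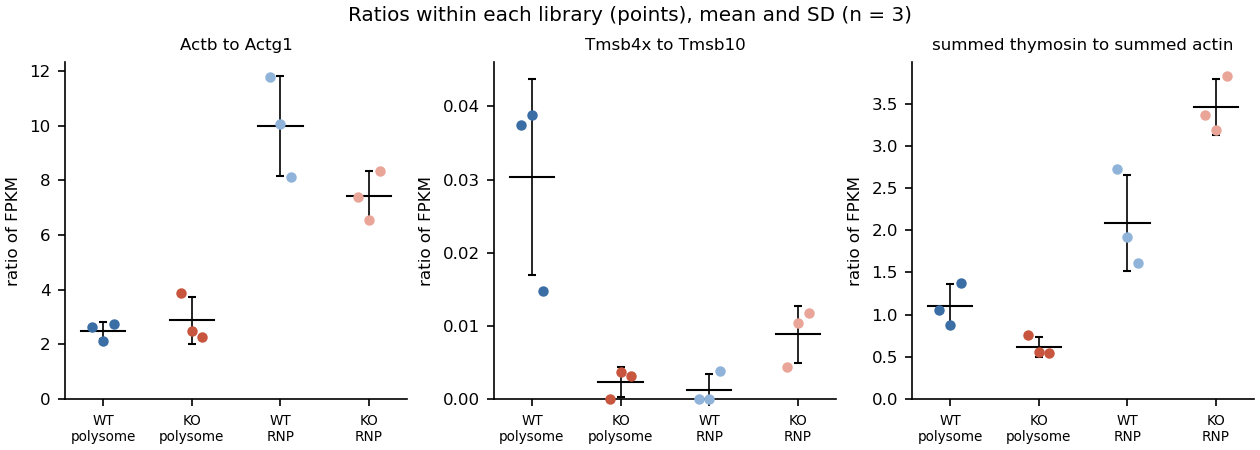
Ratios of FPKM within each library by group, with 1 point per library, the mean as a line and the SD as a bar (n = 3). Summed thymosin to summed actin lies lower in KO than in WT in polysomes and higher in RNP, and *Actb* to *Actg1* averages 9.99 and 7.44 in RNP against 2.5 and 2.87 in polysomes.

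The other genes of the actin pathway were followed in a list of 124, in 10 groups by function, chosen with earlier results of these data known. In polysomes 91 passed the filter, and 8 rose (8.79%) and 4 fell (4.4%) in KO, against 5.64% and 4.73% of all genes tested. The median difference was 0.32 against 0.10 for all genes. Of the 8, *Abi2*, *Cap1* and *Pls3* passed the filter only with their KO libraries. In RNP 87 passed, and 16 rose (18.4%) and 3 fell (3.45%), against 10.5% and 10.2% of all genes, with a median of 0.21 against 0.05. Of the 16, *Tpm4* passed the filter only with its KO libraries. The count in polysomes was 6 without KO polysome library 2 and 7 without KO polysome library 3, and under quantile normalization 7 rose and 6 fell. Over all genes, 538 rose and 451 fell in polysomes in the main fit. Without KO polysome library 2 these were 149 and 249, and without KO polysome library 3 they were 136 and 247. Under quantile normalization they were 538 and 516. The count in RNP was 11 without KO RNP library 1 and 9 without either KO RNP library 2 or 3. Over all genes, 1044 rose and 1013 fell in RNP in the main fit. These were 548 and 707 without KO RNP library 1, 538 and 721 without library 2, and 555 and 743 without library 3.

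Of the turnover factors, 4 of 12 rose and 1 fell in polysomes, where 5.64% of all genes rose and 4.73% fell. *Cap1*, among these 4, passed the filter only with its KO libraries. In RNP 4 of 11 turnover factors rose and 1 fell, where 10.5% of all genes rose and 10.2% fell. *Dstn* (destrin, a relative of cofilin that severs filaments) rose from 143 ± 16.3 to 309 ± 59.7 FPKM in polysomes (1.09 ± 0.17, limma adjusted p = 0.00782) and from 40.4 ± 12.3 to 92.2 ± 13.1 FPKM in RNP (1.20 ± 0.22, 0.0054). *Twf2* (twinfilin 2, which binds subunits and caps filaments) fell by 1.41 in polysomes (limma adjusted p = 0.0233), from 33.3, 50.3 and 47.5 FPKM to 17.7, 10.5 and 20.1 FPKM, and fell by 0.47 in RNP (limma adjusted p = 0.0428). *Coro1c* and *Wdr1* rose in polysomes, and *Cfl2*, *Pfn2* and *Wdr1* rose in RNP, named after their values were seen. Among the bundling proteins, *Lcp1* (plastin 2) rose in polysomes (1.36 ± 0.30, limma adjusted p = 0.0249) and in RNP (1.87 ± 0.39, 0.00952). *Pls3* (plastin 3), given without a test for the reason above, measured 1.7, 0 and 0 FPKM in WT polysomes and 8.7, 12.5 and 21.9 FPKM in KO polysomes.

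Of the 9 genes of the Arp2/3 complex, which nucleates branched actin, 5 were called higher and 1 lower in RNP, against none and 1 in polysomes. The median difference of the 9 was 0.60 in RNP and 0.30 in polysomes, and none of them was called for the ratio. A difference between pools was not tested for the group as a whole. Over all genes 10.5% rose and 10.2% fell in RNP, and 5.64% and 4.73% in polysomes. *Arpc1a* had the largest rise of the 5, from 8.82, 10.8 and 3.03 FPKM to 29.1, 38.1 and 28.7 FPKM in RNP (2.08 ± 0.38, limma adjusted p = 0.00555). In polysomes *Arpc1a* differed by 1.23 ± 0.39 and did not pass the test (limma adjusted p = 0.084). *Arpc4* fell in both pools, by 1.53 in polysomes (limma adjusted p = 0.00415), from 65, 67.4 and 73.1 FPKM to 19, 26.1 and 24.4 FPKM, and by 1.15 in RNP (limma adjusted p = 0.0173). *Whamm*, an activator of the complex, fell by 1.02 in RNP (limma adjusted p = 0.0194). *Rac1*, a GTPase upstream of it, fell by 1.04 in polysomes (limma adjusted p = 0.00782), from 95.9, 125 and 108 FPKM to 52.6, 54.1 and 51.3 FPKM. None of the other formins was called, of 7 tested in polysomes and 6 in RNP, and 1 of 11 genes for myosins and vesicle transport rose in RNP (9.09%, near the share of all genes) and none of 12 in polysomes.

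**Figure D5:**
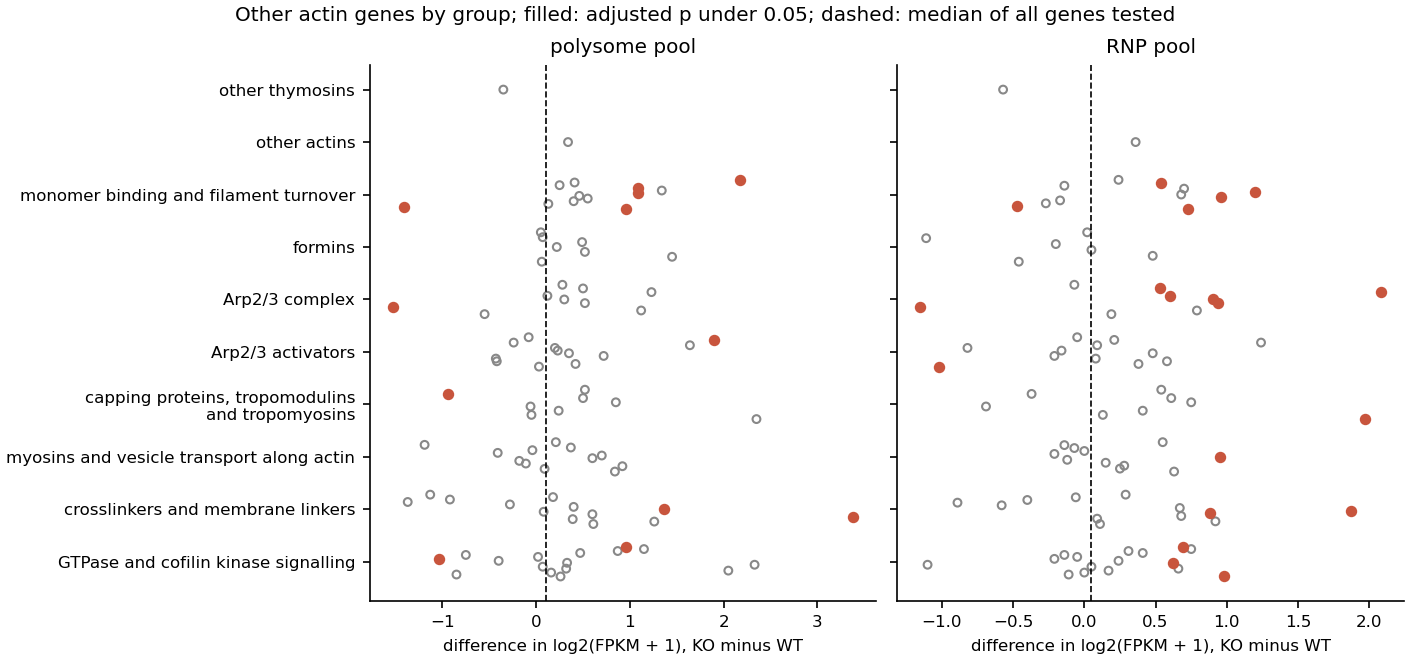
Difference between KO and WT in log2(FPKM + 1) for the other actin genes that passed the filter, by functional group, in the polysome pool and the RNP pool. Filled points passed the limma test at an adjusted p of 0.05, the dashed line is the median of all genes tested, and in RNP 5 filled points of the Arp2/3 complex lie to its right.

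Between pools, 14 of 85 list genes were higher in polysomes and 1 was higher in RNP in WT, with a median of 0.28 against -0.09 for all genes. These were 16.5% and 1.18% of the list, against 7.97% and 6.72% of all genes. The 3 largest were *Tesk2*, a cofilin kinase (2.01 ± 0.48, limma adjusted p = 0.0243), *Rab11b*, of the vesicles that carry actin nucleators (2.00 ± 0.47, 0.0235), and *Racgap1* (1.95 ± 0.29, 0.00332). *Arpc1b* was the 1 gene higher in RNP (-0.88 ± 0.21, limma adjusted p = 0.0274). The total fell from 15 to 8 without WT RNP library 1 and to 9 without WT RNP library 2. Over all genes, 763 were higher and 643 lower in polysomes in the main fit. These were 519 and 264 without WT RNP library 1, and 520 and 266 without WT RNP library 2. In KO 31 of 91 were higher in polysomes (34.1%) and 8 higher in RNP (8.79%), against 15.5% and 13.8% of all genes, with a median of 0.39 against -0.04. *Abi2*, *Fmnl2*, *Rhoc* and *Wasf3*, 4 of these 39, passed the filter only with the libraries of the pool where they were higher. The list was led by *Pls3* (2.63 ± 0.37, limma adjusted p = 0.000796), *Rab11b* (2.21 ± 0.28, 0.00048) and *Rhoc*, which measured 16.1, 14.5 and 4.48 FPKM in polysomes and 3.62, 1.24 and 0.552 FPKM in RNP, and, in the other direction, by the cofilin phosphatase *Ssh1* (-1.58 ± 0.22, 0.000733), the kinase *Tesk1* (-1.58 ± 0.37, 0.0124) and *Twf2* (-1.52 ± 0.24, 0.00143). The total fell from 39 to 24 without KO RNP library 3. Over all genes, 1523 were higher and 1358 lower in polysomes in the main fit, and 1182 and 848 without that library.

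For the ratio itself 0.237% of 10949 genes were called in either direction by limma, and none of the 96 list genes tested was. An unadjusted limma p under 0.05 was found for 14 of the 96 list genes and for 1220 of the 10949 genes. The ratio changes of the 96 list genes ran from -1.56 for *Myh14* to 2.69 for *Pls3*, named after their values were seen, with a median of 0.05.

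The genes most like each thymosin over the 12 libraries were found by Pearson's r of log2(FPKM + 1) among the 6679 genes averaging 5 FPKM or more. The libraries share genotype, pool and depth, so r is a description. For *Tmsb4x* they were *Mboat2* (r = 0.869), *Lace1* (0.850), *Fopnl* (0.834), *Txn2* (0.823) and *Tmbim6* (0.811). *Lace1*, for example, averaged 13.5 FPKM in WT polysomes, 5.14 in KO polysomes, 5.19 in WT RNP and 13.2 in KO RNP. For *Tmsb10* they were *Ftl1* (0.967), *Arpc3* (0.944), *Pld2* (0.935), *Dynll1* (0.928) and *Sfr1* (0.918). *Arpc3* is a subunit of the Arp2/3 complex, and of the other members *Pfn1* was nearest to *Tmsb10*, at rank 43 (r = 0.848). *Tmsb4x* and *Tmsb10* had r = 0.213 with each other.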

How the data were processed

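After trimming, reads were aligned to mm10 by the authors (TopHat2 2.0.13), and Cufflinks 2.2.1 gave the FPKM of every gene symbol. The deposited FPKM are scaled to transcript length and to the fragments of each library. Their deposited table also holds 54 columns of Cuffdiff comparisons, among them log2 changes and p-values and q-values calculated by the authors, and none was used.

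KO and WT were compared in each pool, and polysomes with RNP in each genotype, with limma 3.58.1 in R 4.3.3 on log2(FPKM + 1), with an intensity trend. A gene entered a comparison when 3 or more of its libraries reached 1 FPKM, and p-values were adjusted over all of them by Benjamini-Hochberg at 0.05. The ratio change was the interaction of genotype and pool over 12 libraries. *Tmsb4x* passed the filter in polysomes through WT and in RNP through KO. A called gene was said to have passed only with the group where it is high when the other group did not have all 3 libraries at 1 FPKM or more. The method was tested on simulated data. A set share of known changes had to be recovered in the comparisons of genotypes and of pools. The ratio fell short of that share, and for it recovery was not required.

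Members, lists and markers were chosen with earlier results of these data known. From the actin list, the 3 called genes that changed most each way, averaging 5 FPKM or more, were named for each comparison, together with other called genes in passing. Of its 124 genes, 4 were matched by a RefSeq synonym. Positions and sequences came from GENCODE M21 (GRCm38), and shared stretches from blastn 2.17.0. Same-numbered libraries did not deviate together. Alternatives were pseudocounts of 0.1 and 5, no filter, a filter at 5 FPKM, rescaling to the same median, quantile normalization, no trend, a replicate block, and each library left out.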

Additional observations from a re-analysis of the deposited data

Results flagged for a closer look

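The effect of genotype on *Tmsb4x* ran in opposite directions in the 2 pools, with all 3 KO libraries below all 3 WT libraries in polysomes and above them in RNP, and a ratio change of -5.20. This difference was not tested, since the gene was selected on the ratio. Groups of 3 libraries are too small to single out a library that lies far from its group in the level of 1 gene. Over all genes, KO polysome library 2 stood apart, with 34.7% of its summed FPKM in 10 genes, as given above.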

How the results depend on the processing

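Of the 8 tested members, without an intensity trend 1 was called between genotypes in polysomes and 1 between pools in WT, and the actin list gave 12 calls in RNP and 8 in WT. Over all genes without a trend, 276 rose and 232 fell in KO polysomes, and 706 rose and 805 fell in KO RNP. Between the WT pools 445 were higher and 283 lower in polysomes. The change in the ratio of *Tmsb4x* was -8.85 with a pseudocount of 0.1 and -2.56 with 5, and it lay between -5.58 and -4.70 with each library left out. With each library left out, the tested members called ranged from 3 to 4 in polysomes, from 4 to 5 in RNP, stayed at 3 between the WT pools and ranged from 5 to 6 between the KO pools. The actin list calls ranged from 6 to 15 in polysomes, from 9 to 21 in RNP, from 8 to 14 between the WT pools and from 24 to 41 between the KO pools, and stayed at 0 for the ratio. Over all genes, calls higher ranged from 136 to 477 and calls lower from 247 to 338 in polysomes. In RNP they ranged from 538 to 1053 and from 707 to 870. Between the WT pools they ranged from 519 to 637 and from 259 to 609. Between the KO pools they ranged from 1158 to 1510 and from 848 to 1399. *Fmn2*, never called, changed sign, from -0.22 to 0.10 in polysomes and from -0.25 to 0.04 between the WT pools. No within-library ratio moved by more than 1 SD. The cause of these changes was not tested.

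No pairing was seen by replicate number, and deviations of same-numbered libraries correlated between -0.021 and 0.026. Each library carries its own noise, so these correlations cannot decide whether the pools of a gradient were paired. The main fits used no pairing. With the replicate number as a replicate block, 4 members were called in polysomes, 5 in RNP, 3 between the WT pools, where the call of *Pfn1* was lost (limma adjusted p = 0.0812), and 5 between the KO pools, and the ratio change of *Tmsb4x* was -5.20 in both block fits. The calls of the ratio over all genes fell from 9 higher and 17 lower to 2 and 9 with the block, and to none with the block within genotype.

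FPKM without counts leaves the counting error of *Tmsb4x* and *Spire2* open to estimate only, and 3 libraries per group limit every interval. The deposited values do not show how much RNA each pool held.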

Other observations

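The 12 oocyte markers that served to check the cells also moved between genotypes. In KO polysomes 5 rose, *Nlrp5* (1.08 ± 0.11, limma adjusted p = 0.00182), *Dppa3* (0.86 ± 0.10, 0.00277), *Zp2* (0.97 ± 0.21, 0.0219), *Zp3* (0.64 ± 0.17, 0.0457) and *Kit* (0.69 ± 0.17, 0.0387), and 1 fell, *Mos* (-0.85 ± 0.16, 0.013), the kinase that holds the egg in metaphase. Over all genes 5.64% rose and 4.73% fell in polysomes, and 10.5% and 10.2% in RNP. *Mos* measured 1075 ± 219 FPKM in WT polysomes and 588 ± 65.1 FPKM in KO polysomes (SD, n = 3). In KO RNP 5 rose and 2 fell, *Mos* (-0.36 ± 0.08, limma adjusted p = 0.00952) and H1foo, the oocyte linker histone (-0.26 ± 0.06, 0.0177). The 1 of 8 theca and stroma markers, 2 of 5 endothelial markers and 1 of 6 immune markers that passed the filter in polysomes were not called by limma, and neither were the 2 endothelial and 1 immune marker that passed it in RNP.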
